A study of Anas platyrhynchos with 6 samples.

Results

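Coding transcripts that were present in some laying duck ovaries and close to absent in others were examined in 6 ovary RNA libraries of the Jinding duck, a Chinese egg-laying breed of Anas platyrhynchos. The set holds 200 transcripts with XM or NM accessions, the RefSeq classes for messenger RNA, of 30690 such transcripts and 41952 transcripts in all. Members had an FPKM (sequenced fragments scaled for the length of the transcript and the size of the library) under 0.1 in at least 1 library, which is called off here. The 10455 transcripts that met this were ranked by the range of log2(FPKM + 1) over the 6 libraries, and the 200 with the widest range were kept. XM_013092159.1, the transcript called between the laying groups when all transcripts were tested, was left out by the rule. The members were thus chosen on the very values described below, so their range, their off libraries and their patterns are given as descriptions with no test.

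All ducks were half-sibs, kept in the same way and sampled at 340 days. The high group had a laying rate above 99% and the low group a rate below 85%, with 3 libraries in each. The labels give no genotype or treatment, and laying record is the only difference between the groups that they state. Any unstated difference between the groups cannot be told apart from it. Whether every library is a different duck is not in the labels, so any p-value measures the spread between these libraries, which may be technical in part. Read depth is unknown, because only FPKM values were used here. Summed FPKM was 622708 to 639135 in high and 569606 to 605510 in low libraries.

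A gene can produce several messenger RNAs through alternative promoters, splicing and polyadenylation, and an abundance program then divides the reads of shared exons among them. A single transcript can therefore be near 0 while its gene stays active, or the whole gene can be silent. The ovary of a laying bird holds follicles at many stages, with oocytes, granulosa and theca cells around them, and stroma, vessels and blood cells between them. In such bulk tissue, fewer cells of a type and less RNA per cell cannot be told apart.

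Most of the members were missing from a single ovary rather than from a laying group. Of the 200 members, 131 were off in exactly 1 library, 40 in 2, 14 in 3, 9 in 4 and 6 in 5. For comparison, 1177 coding transcripts had an off library and at least 1 FPKM in some library. Of those 59.9% were off in exactly 1 library, 21.1% in 2, 10.2% in 3, 5.35% in 4 and 3.48% in 5, against 65.5% of the members for 1 library. The members' highest value over the libraries ran from 3.74 to 115 FPKM, with a median of 6.25, and 46 members reached 10 FPKM somewhere. Most members were therefore low even where they were on.

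**Figure D1:**
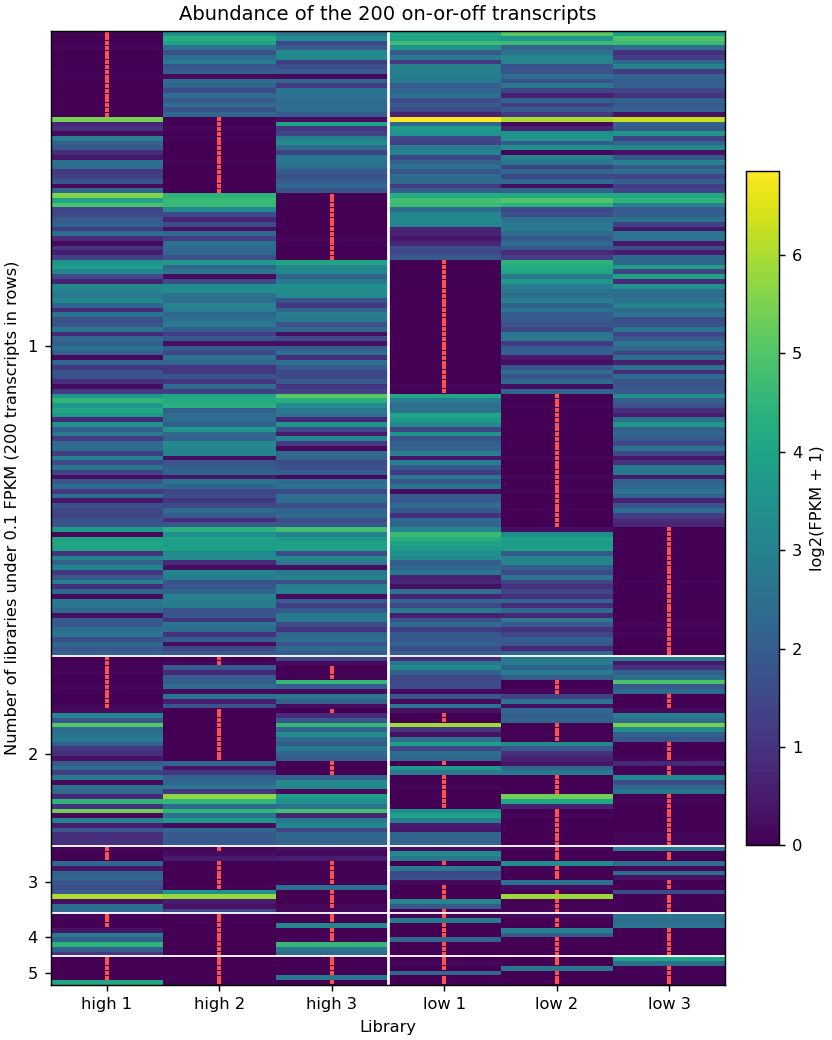
Level of each member, as log2(FPKM + 1) in colour, with libraries in columns (high to the left of the white line, low to the right) and the 200 transcripts in rows, sorted by how many libraries were under 0.1 FPKM. Red marks show the 319 off values, and the large upper block holds the 131 members off in a single library.

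Off was rarely an exact 0. Of 319 off values only 18 were listed at 0, and 159 were under 0.001 FPKM, down to 2.44e-49, while 108 lay between 0.01 and 0.1 FPKM. Of all 1200 values of the members, 736 reached 1 FPKM and 145 fell between the off limit and 1 FPKM. For 110 members no value fell in that intermediate band, so each library was either off or at 1 FPKM or more. The members just inside and just outside the limit of 200 differed little. XM_005028987.2, CHAF1B (XM_013093321.1) and XM_005031523.2 had ranges of 2.25, 2.25 and 2.24 log2 units inside it. XM_013098687.1, KCTD1 (XM_005009485.2) and XM_013106094.1 had 2.24, 2.23 and 2.23 outside it.

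Low-production ovaries had more members off than high-production ovaries, and so it was for the 1177 coding transcripts with an off library and at least 1 FPKM somewhere, of which the members are a part. Members off numbered 40, 51 and 40 in high 1 to 3 and 55, 68 and 65 in low 1 to 3, so the groups did not overlap in this count. Of the 1177, 314, 328 and 314 were off in high 1 to 3 and 329, 348 and 385 in low 1 to 3. The direction was the same, but only the step from 328 in high 2 to 329 in low 1 kept the groups apart. The members are in these counts, with 51 in high 2 and 55 in low 1, so the wider set is no separate evidence. With transcripts that stayed under 1 FPKM in every library counted too, the order turned. Over all coding transcripts with an off library, 3937 of them off in all 6, 7166, 7181 and 7340 were off in the high and 7062, 6859 and 6923 in the low libraries, without overlap but with the high libraries above. Of the members, 99 were off only in low libraries, 54 only in high libraries and 47 in libraries of both groups. That is 49.5% only in low and 27% only in high, beside 39.8% and 29.7% of the 1177. Among the 6518 coding transcripts off in 1 to 5 libraries, whatever their level, 1159 were off only in low and 1161 only in high libraries. The 131 members off in a single library were divided as 18, 16 and 14 in high 1 to 3 and 28, 28 and 27 in low 1 to 3. The low libraries thus held 63.4% of them, beside 57.3% of the 705 such transcripts among the 1177. With an off limit of 0.5 FPKM the mean excess of off members per low library, 19 at the limit of 0.1, came to 5.33. For the wider set of 1177 at the limit of 0.1 the mean excess was 35.3, which came to 17.3 without low 3 and turned to -98.7 for the set formed with a limit of 0.5 FPKM.

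**Figure D2:**
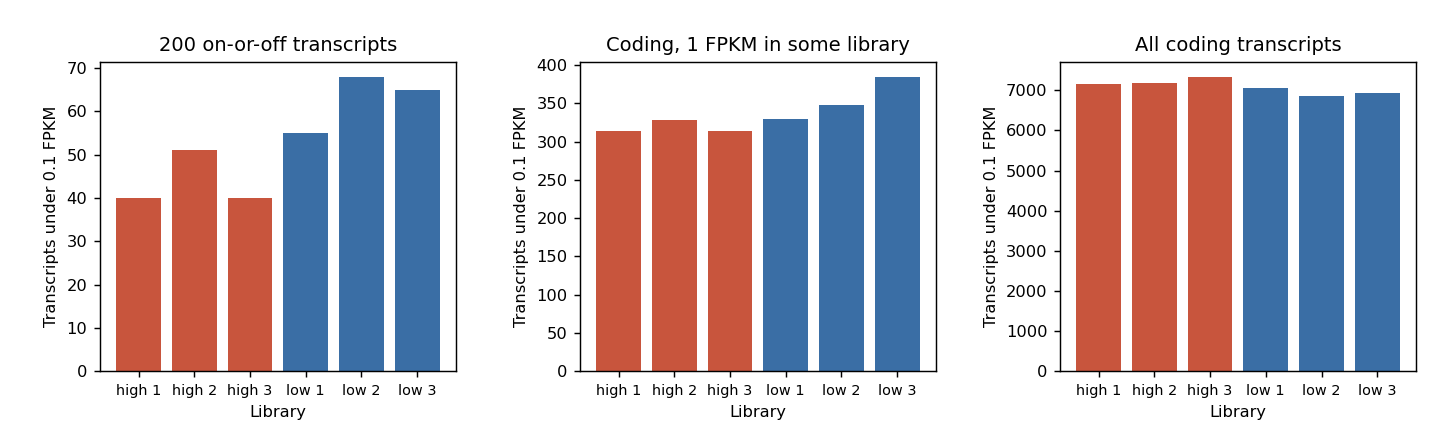
Number of transcripts under 0.1 FPKM in each library (red, high; blue, low), for the 200 members on the left, the 1177 coding transcripts with an off library and at least 1 FPKM somewhere in the middle, and all coding transcripts but XM_013092159.1 on the right. Members off number 40 to 51 in high and 55 to 68 in low libraries, the middle set 314 to 328 and 329 to 385, and all coding transcripts off number 7166 to 7340 in high and 6859 to 7062 in low libraries.

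Among members off in exactly 3 libraries, the on or off patterns did not follow the laying groups more than other divisions into 3 and 3. Of the 14 members off in exactly 3 libraries, 1 was off in the 3 low libraries and 0 in the 3 high ones. There are 10 ways to divide 6 libraries into 3 and 3, and the laying division held 1 member. Of the other divisions, that of high 1, low 1 and low 3 against the rest held 3, and so did that of high 1, low 2 and low 3 against the rest, while 2 divisions held none. Among all coding transcripts with an off library, 119, or 1.14%, followed the laying division, and the other divisions held between 73 and 124. The sides of the laying division were unequal, with 82 off in the 3 high libraries and 37 off in the 3 low ones. Every other set of 3 libraries held 34 to 70, so the 82 was the largest count of any set. XM_013092159.1, left out by the rule, is in none of these counts. The member count also depends on the settings. The laying division held 2 members with an off limit of 0.5 FPKM and 3 with 400 members kept, where the other divisions were not counted. XM_013096060.1, at 0.0393, 0.119 and 0.117 FPKM in high 1 to 3, counted as off in high 1 only. The member that followed it, XM_013098208.1, was at 4.42, 1.68 and 0.112 FPKM in high 1 to 3 and at 1.08e-11, 0.0460 and 7.73e-13 FPKM in low 1 to 3. High 3 was thus only just above the off limit. No gene name could be matched to it.

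**Figure D3:**
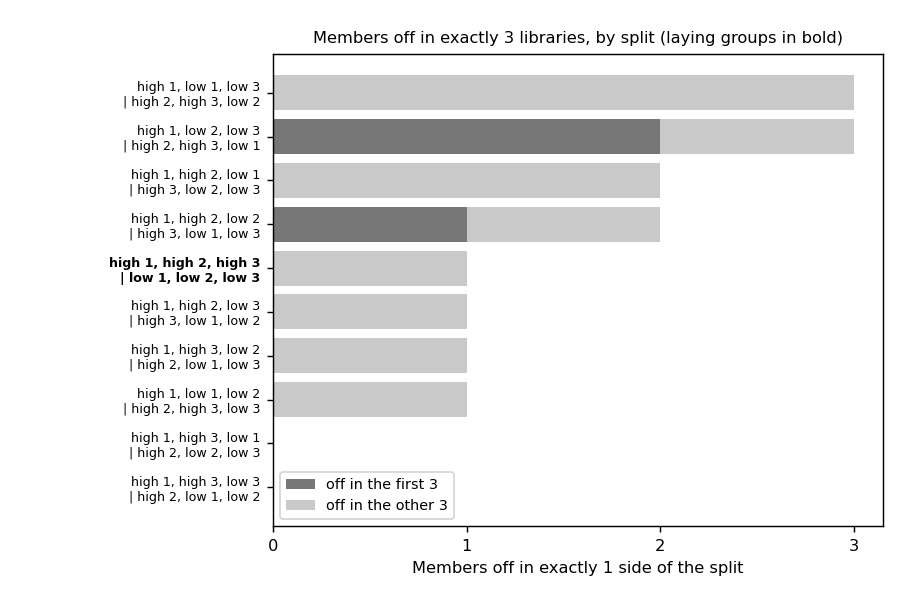
Number of members off in exactly 3 libraries, for each of the 10 divisions of the libraries into 3 and 3, with the shade showing which side was off. The laying division, in bold, holds 1 member, and the fullest divisions hold 3.

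Members off in 2 libraries were more often off in a pair of low than in a pair of high ovaries. Of these 40 members, 15 were off in a pair of low libraries, 6 in a pair of high libraries and 19 in a pair that crossed the groups. Pairs of low libraries thus held 37.5% and pairs of high libraries 15% of these members, beside 23.8% and 16.5% of the 248 such transcripts among the 1177. Among the 1197 coding transcripts off in exactly 2 libraries, whatever their level, the order turned. There pairs of low libraries held 222, or 18.5%, and pairs of high libraries 261, or 21.8%. The pair low 2 and low 3 was the most frequent with 8 members, but 3 of them, XM_005023723.1, XM_005023724.1 and XM_013103556.1, had identical values in every library and so are a single measurement. The 15 members off in a pair of low libraries thus count that measurement 3 times, and the 200 members hold 198 distinct profiles. The highest and the lowest library of a member lay in the same laying group for 76 members, or 38% (for the 1177 coding transcripts 42.2%).

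None of the members passed a test between the laying groups. For the test the 19790 transcripts that reached 1 FPKM in 3 or more libraries were compared with limma, a linear model that shares the estimate of spread among transcripts. Of the 200 members 155 entered it, and 45 were too low in too many libraries. By limma 0 members had an adjusted p under 0.05, against 1 of all tested, or 0.00505%. That 1 was XM_013092159.1, which the rule left out, so the 0 followed from the rule and is no result about the members. At an unadjusted p under 0.05 there were 30 of the 155, 18 higher and 12 lower in high, where the share over all tested was 3.51%. Since the members were picked for a wide range over these same libraries, and the filter is met through the libraries where they are on, the share of 19.4% is no support for a difference between the groups. With no filter on abundance all 200 were tested by limma and 0 passed. Of all 39755 tested that way 0 passed too, so this is no result about the members. Of the 200, 18 had an unadjusted p under 0.05, beside 4.45% of all 39755. That count is no support for a difference either, because the members were picked for their range on these values. The log2 difference, high minus low, was above 0 for 92 and below 0 for 63 of the 155 members, beside 49.5% above 0 over all tested, with a median of 0.31 (all tested -0.003). The rule and the filter read these same values, so this lean is no support for a difference between the groups either. The median standard error was 0.67 log2 units for the members and 0.26 for all tested.

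High and low libraries did not overlap for 26 members, or 13%, beside 8.54% of all tested transcripts and 9.72% of the coding transcripts with an off library. The members were picked for a wide range over these same libraries, so this share is no support for a difference between the groups. The 26 include members not tested, such as XM_013108286.1, off in high 2 (0.00480 FPKM) and in all low libraries (0.00153 to 0.00362 FPKM). High was above low for 15 of the 26 members and low above high for 11. Of the 1691 tested transcripts without overlap, high was above low for 736 (3.72% of all tested) and low above high for 955 (4.83%). XM_013096060.1 had the smallest p. It was at 0.0393, 0.119 and 0.117 FPKM in high and at 6.53, 4.46 and 3.54 FPKM in low libraries, near or under the off limit in all 3 high ovaries and clearly present in all 3 low ones. The log2 difference was -2.39 (SE 0.26, limma adjusted p = 0.242). XM_005010408.2 was at 0.150, 0.000244 and 1.68 FPKM in high and at 10.4, 10.6 and 10.9 FPKM in low libraries. Its low values were nearly equal and all above the high values, and differed by -3.00 log2 units (SE 0.38, limma adjusted p = 0.295).

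In the other direction XM_013095647.1 led, at 3.73, 3.94 and 4.89 FPKM in high and 0.0136, 0.193 and 0.511 FPKM in low libraries. The high values were close together and all above the low ones, and differed by 2.08 log2 units (SE 0.25, limma adjusted p = 0.295). XM_005018424.2 was at 2.64, 3.91 and 1.64 FPKM in high and at 0.329, 4.26e-15 and 0.00274 FPKM in low libraries. Its log2 difference was 1.72 (SE 0.30), with a limma adjusted p of 0.853. XM_005020056.2 was at 0.0675, 0.707 and 0.0408 FPKM in high and at 3.29, 6.08 and 3.27 FPKM in low libraries. Its log2 difference was -2.03 (SE 0.32), with a limma adjusted p of 0.525. For both transcripts the groups were apart in every library, though neither passed. No gene name could be matched to any of these 5 transcripts.

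The remaining members with the smallest p differed within a group as well as between groups. XM_013108977.1 was at 40.6, 21.8 and 27.7 FPKM in high, at 9.76 in low 1, listed at 0 in low 2 and at 2.37e-31 FPKM in low 3. XM_013094799.1 was at 12.3, 19.3 and 27.0 FPKM in high and at 7.71, 0.205 and 0.0269 FPKM in low libraries. In both, low 1 stood well above the other low ovaries. XM_005021638.2 was at 11.7, 19.3 and 8.91 FPKM in high and at 4.46, 0.0919 and 2.23 FPKM in low libraries. XM_005023176.2 was at 2.74, 0.651 and 4.83e-06 FPKM in high and at 8.03, 4.9996 and 5.02 FPKM in low libraries. The log2 differences of these 4 were 3.77 (SE 0.87), 3.15 (SE 0.78), 2.35 (SE 0.58) and -1.91 (SE 0.48), and the limma adjusted p was 0.9998 for each. Without low 1, the library that stood apart from its group, the log2 difference of XM_013108977.1 was 4.91 and it passed (limma adjusted p = 0.0336). With any other library left out it did not pass (limma adjusted p of 0.553 or more), so the call rests on removing low 1.

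The widest range of all belonged to XM_013097999.1, a transcript with no matched name. It was at 42.7, 0.0526 and 0.177 FPKM in high and at 115, 63.2 and 76.5 FPKM in low libraries, so high 1 was close to the low ovaries and 2 high ovaries had almost none. The log2 difference was -4.46 (SE 1.31, limma adjusted p = 0.9998). Without high 1, the library that stood apart from its group, it was -6.22 and passed (limma adjusted p = 0.00642). With any other library left out it did not pass (limma adjusted p of 0.490 or more), so the call rests on removing high 1. The next widest members crossed the groups. XM_013103736.1 was at 64.2, 54.95 and 2.74e-06 FPKM in high and 0.000190, 55.8 and 5.83e-05 FPKM in low libraries, so that it was either at 54.95 to 64.2 FPKM or off, with 3 libraries in each state and both states in both groups. XM_005029875.2 was at 31.9, 0.00949 and 22.8 FPKM in high and 58.9, 9.9e-06 and 43.1 FPKM in low libraries, off in high 2 and low 2. XM_013108798.1 was at 0.706, 51.6 and 13.4 FPKM in high and 1.02e-05, 41.1 and 1.96e-07 FPKM in low libraries, off in low 1 and low 3. XM_005020904.2 was at 46.9, 20.9 and 0.0216 FPKM in high and 18.0, 16.9 and 17.2 FPKM in low libraries, absent from high 3 and steady in the low ovaries.

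Gene names could be matched for few members. Accessions were looked up without their version number in a RefSeq gene table of a Pekin duck assembly, where 17 of the 200 members were found, or 8.5%, beside 12.9% of all coding transcripts. Of these, 14 carried a gene symbol and 3 a placeholder. The 14 named members fall into those whose gene has another matched transcript, which shows whether the gene itself stayed on, and those matched alone.

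**Figure D4:**
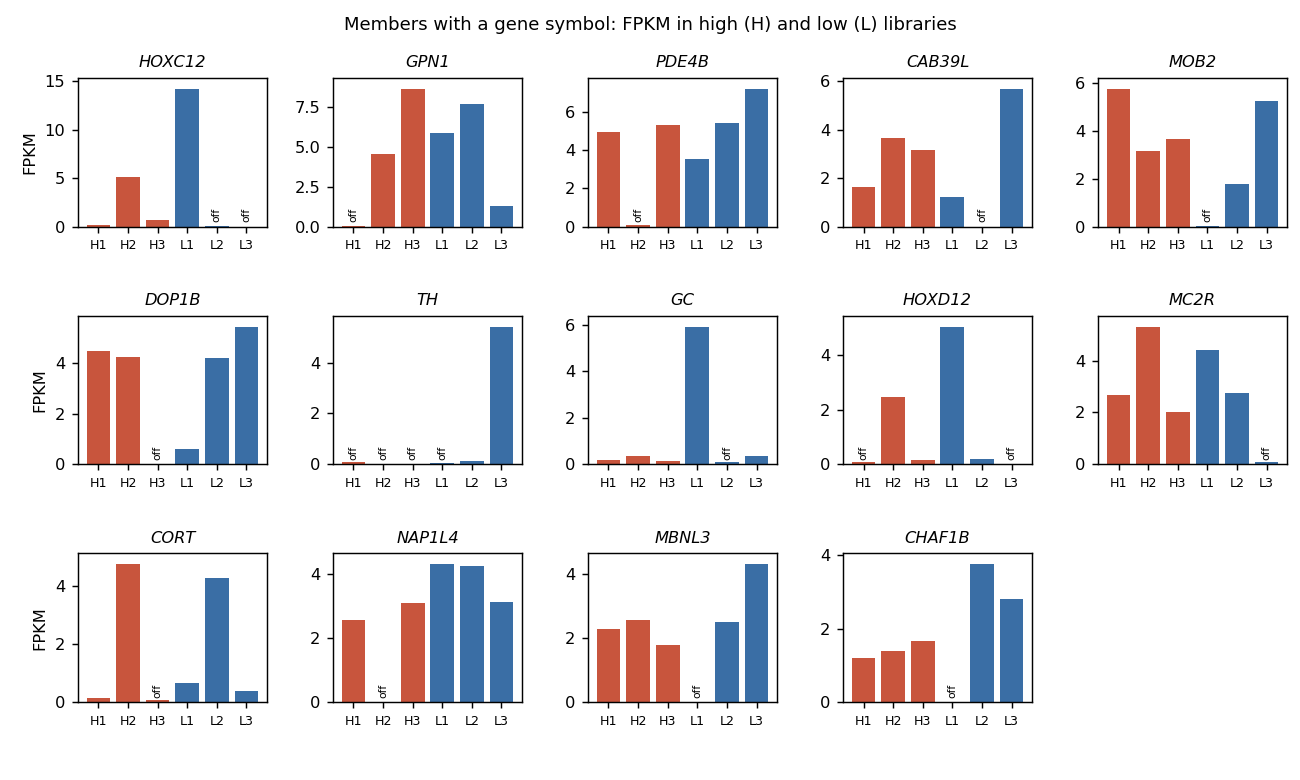
FPKM of the 14 members with a gene symbol in each library (H1 to H3, high, red; L1 to L3, low, blue), with values under 0.1 FPKM marked off and a separate linear axis for each gene. HOXC12 and HOXD12 are highest in L1 and next in H2, TH stands out in L3 and GC in L1.

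For 6 members at least 1 other transcript of the same gene was matched, and in each of these genes another transcript was present in the library where the member was off. PDE4B encodes a phosphodiesterase that breaks down cyclic AMP, the messenger of gonadotropin receptors. Its member, XM_005028037.2, was at 4.97, 0.0740 and 5.29 FPKM in high and 3.52, 5.395 and 7.19 FPKM in low libraries. In high 2, where the member was off, its other transcript XM_005028035.2 was at 5.21 FPKM, above the 0.486 to 2.14 FPKM of the other libraries. The sum over its 3 matched transcripts was 5.43 FPKM in high 2 and 4.85 to 8.44 FPKM in the other libraries, so the sum in high 2 lay within the range of the rest while the share of the member was 1.36%, against 70.8% to 85.3% elsewhere.

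NAP1L4, a histone chaperone gene, showed a comparable exchange in the same ovary. Its member XM_005019762.2 was at 2.56, 0.000438 and 3.09 FPKM in high and 4.28, 4.23 and 3.11 FPKM in low libraries. In high 2 the transcript XM_013099805.1 was at 15.1 FPKM against 2.04 to 5.81 FPKM elsewhere, and XM_013099804.1 was at 7.69 FPKM against 18.3 to 26.0 FPKM elsewhere. The gene's sum, 22.8 FPKM in high 2, was the lowest of the 6 libraries, which otherwise ran from 23.4 to 36.1 FPKM. For both PDE4B and NAP1L4 the high 2 ovary thus differed from the other 5 in which transcript carried most of the level.

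GPN1, a GTPase gene needed for nuclear import of RNA polymerase II, had a member that was off in high 1. That member, XM_013097446.1, was at 0.0245, 4.52 and 8.62 FPKM in high and 5.83, 7.68 and 1.28 FPKM in low libraries. The main transcript of the gene, XM_005017421.2, was at 19.1 to 26.7 FPKM in all 6 libraries, and the sum was steady at 24.7 to 32.1 FPKM. MOB2, which encodes a regulator of NDR kinases, had a member off in low 1. XM_005019734.2 was at 5.76, 3.17 and 3.68 FPKM in high and 0.0375, 1.79 and 5.24 FPKM in low libraries. In low 1 the main MOB2 transcript XM_005019732.2 was at its highest, 36.5 FPKM, and the sum of the 3 matched transcripts was 38.7 FPKM, above the 15.3 to 36.9 FPKM of the other libraries.

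In MBNL3 and CAB39L, as by a small margin in NAP1L4, the sum was lowest in the library where the member was off. The sum holds the member itself, so a low sum there is built in to some degree. MBNL3 encodes a muscleblind protein that regulates splicing. Its member XM_013101748.1 was at 2.29, 2.56 and 1.76 FPKM in high and 0.00500, 2.49 and 4.28 FPKM in low libraries. The other transcript, XM_005021812.2, was at 1.099 FPKM in low 1, inside its range of 0.706 to 1.68 FPKM elsewhere, and the sum was 1.104 FPKM against 2.47 to 5.97 FPKM. CAB39L encodes a scaffold of the LKB1 kinase complex. Its member XM_005015252.2 was at 1.64, 3.65 and 3.15 FPKM in high and 1.23, 0.000105 and 5.69 FPKM in low libraries. In low 2, where it was off, the sum of the 3 matched CAB39L transcripts was 1.48 FPKM, below the 3.33 to 11.04 FPKM of the others. There XM_005015254.2 was also at its lowest, 0.759 FPKM against 1.72 to 4.57 FPKM elsewhere. XM_005015251.2 was at 0.720 FPKM, inside its range of 0.194 to 2.03 FPKM elsewhere.

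**Figure D5:**
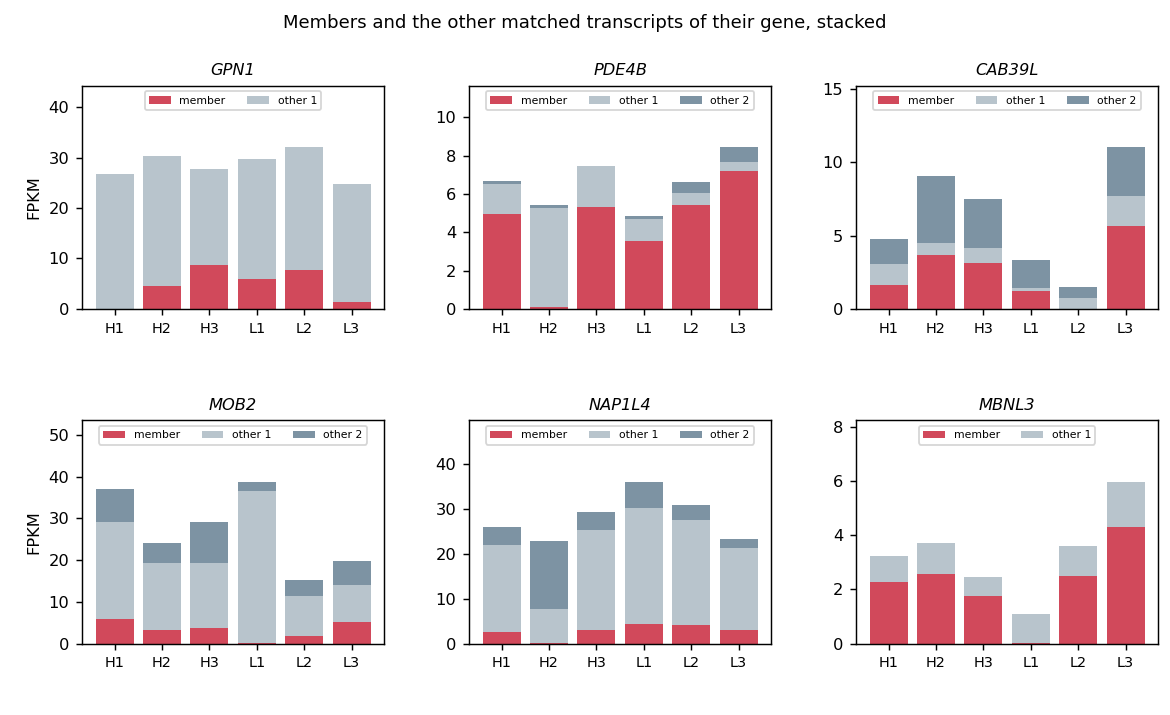
FPKM of the member (red) and of the other matched transcripts of its gene (greys), stacked for each library of 6 genes, with a separate linear axis for each gene. In PDE4B and NAP1L4 the H2 bar has almost no member and a larger share of another transcript, and in MBNL3 and CAB39L the whole bar is lowest where the member is off.

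Of the 8 named members matched alone, 2 belong to the HOX family, homeobox transcription factors that lay out the body axis, with the genes at the 5′ end of each cluster acting furthest towards the tail. HOXC12 was at 0.122, 5.09 and 0.650 FPKM in high and 14.2, 0.0665 and 0 FPKM in low libraries. HOXD12, from another cluster, was at 0.0908, 2.46 and 0.149 FPKM in high and 5.03, 0.187 and 0 FPKM in low libraries. Both were highest in low 1, second in high 2 and listed at 0 in low 3, so the same 2 ovaries held these genes and they came from different laying groups. HOXC11, the neighbour of HOXC12 and not a member, was at 0.213, 1.02 and 0.182 FPKM in high and 2.22, 0 and 0 FPKM in low libraries. Other genes of these clusters differed. HOXC10 was highest in low 3, at 2.05 FPKM, with 1.55 FPKM in low 1 and 0.286 FPKM in high 2. HOXD10 was highest in high 2, at 1.43 FPKM, but at only 0.602 FPKM in low 1.

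To see whether the family moved as a whole, all 20 transcripts matched to HOX symbols were listed, a list made after the HOXC12 values had been seen. Of 17 that reached 1 FPKM in some library, 8 were highest in low 3, 4 in low 1 and 3 in high 2. HOXB4 was at 49.7 FPKM in low 3 and 16.1 FPKM in low 1, and HOXA5 at 44.4 and 20.4 FPKM, the opposite order to HOXC12. HOXD13, the last gene of its cluster, was under 0.1 FPKM in all 6 libraries. In the laying comparison 10 of the 20 were tested, 5 higher and 5 lower in high, with a median log2 difference of -0.005, and limma called 0.

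TH encodes tyrosine hydroxylase, the rate-limiting enzyme of catecholamine synthesis. It was at 0.0781, 0 and 0.0161 FPKM in high and 0.0643, 0.139 and 5.42 FPKM in low libraries, so that low 3 alone held it above 1 FPKM. DDC, the next enzyme of that pathway and not a member, was also highest in low 3, where its transcript XM_005022746.2 was at 1.40 FPKM against 0.0218 to 0.554 FPKM elsewhere. MC2R, the receptor for adrenocorticotropic hormone, was at 2.69, 5.30 and 2.01 FPKM in high and 4.41, 2.74 and 0.0776 FPKM in low libraries. It was thus off only in low 3, the ovary in which TH was above 1 FPKM. By the off limit TH was not off in low 2 either, at 0.139 FPKM. MRAP, the gene of the MC2R accessory protein, was at 0.927 FPKM in low 3 and 0.269 to 0.675 FPKM elsewhere. Of 13 catecholamine and adrenal genes listed after these values had been seen, only these 4 were matched, with a summed level of 2.65 to 6.26 FPKM in high and 3.89 to 8.33 FPKM in low libraries. Of them MC2R alone was tested between the laying groups and was not called by limma, and the part of adrenal or nerve tissue in these values was not tested.

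GC encodes the vitamin D-binding protein of plasma, made mainly in liver. It was at 0.195, 0.366 and 0.137 FPKM in high and 5.92, 0.0966 and 0.374 FPKM in low libraries, and so stood out in low 1. The same ovary was highest for most other matched plasma proteins that liver makes, in a list of 18 written after the GC values had been seen, of which 11 were matched. Of the 9 that reached 1 FPKM somewhere, 8 were highest in low 1, GC itself among them, and 1, APOH, in high 2. The other 2 stayed under 1 FPKM in every library, with APOB highest in low 1 and SERPINC1, the antithrombin gene, highest in low 2. FGB, a fibrinogen chain, was at 9.23 FPKM in low 1 and 0.437 to 1.46 FPKM elsewhere. AHSG, the fetuin-A gene, was at 2.63 FPKM against 0.0865 to 0.321 FPKM, and APOB, the apolipoprotein of lipoprotein particles, at 0.643 against 0.0164 to 0.101 FPKM. SERPINC1 was at 0.479, 0.315 and 0.558 FPKM in high and at 0.535, 0.751 and 0.506 FPKM in low libraries, so low 1 did not stand out for it. The summed level of the 11 genes, GC included, was 53.2 FPKM in low 1, against 16.4 to 25.4 FPKM in high and 11.9 to 13.4 FPKM in the other low libraries. Of these genes 4 were tested between the laying groups, 3 higher and 1 lower in high with a median log2 difference of 0.20, and limma called 0. The part of liver RNA in these values was not tested.

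The other named members matched alone have varied roles. CORT encodes cortistatin, a neuropeptide related to somatostatin. It was at 0.135, 4.73 and 0.0729 FPKM in high and 0.666, 4.25 and 0.379 FPKM in low libraries, above 1 FPKM in high 2 and low 2 only. CHAF1B, a subunit of chromatin assembly factor 1 that places histones on new DNA, was at 1.19, 1.40 and 1.66 FPKM in high and 7.12e-05, 3.75 and 2.80 FPKM in low libraries, off in low 1. DOP1B, a gene of membrane traffic, was at 4.47, 4.21 and 5.73e-07 FPKM in high and 0.584, 4.20 and 5.42 FPKM in low libraries, off in high 3. For every named member matched alone, HOXC12, HOXD12, TH, MC2R and GC included, other transcripts of the gene may exist under unmatched accessions. Their values therefore describe a transcript and not the gene. For CORT, CHAF1B and DOP1B the groups overlapped.

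Members that reached 1 FPKM in a single ovary did so mostly in a low library. The same held for the 1177 coding transcripts of which the members are a part, so it is not particular to the members. At least 1 FPKM was reached in a single library by 18 members, in 2 by 27, in 3 by 33, in 4 by 45 and in 5 by 77. Of the 18, only 6 were off in every other library. The single library was low 1 for 6 of the 18, low 3 for 5, low 2 for 3, high 3 for 2, and high 1 and high 2 for 1 each. Low libraries thus held 14 of the 18, or 77.8%, beside 66.5% of the 531 of the 1177 coding transcripts that reached 1 FPKM in exactly 1 library. The level of a member on in a single ovary could be substantial. After the values had been seen, XM_005010079.2 was picked out as an example, at 15.7 FPKM in high 1 and between 0.00514 and 0.0332 FPKM elsewhere, and so was XM_013092230.1, at 14.8 FPKM in low 3 and under 0.001 FPKM elsewhere.

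Accession numbers give a partial view of the unnamed members, since transcripts of a gene often have consecutive numbers. In this series 584 of 919 matched pairs with consecutive numbers, or 63.5%, were of the same gene. A deposited transcript with the next or the preceding number existed for 189 members. For 130 of them these neighbours summed to at least 1 FPKM in every library where the member was off, and for 17 they were under 0.1 FPKM in some such library. The neighbours' level was higher in the off than in the on libraries for 75 of 189, with a median log2 difference, off minus on, of -0.07 (quartiles -0.31 and 0.18). Neighbours thus showed no general rise where the member was off. That most stayed on was not compared with other transcripts, and a neighbour may be of another gene. Exceptions include XM_005020904.2 and XM_005020906.2, both off in high 3, for which the neighbour was listed at 0 there. Among members themselves, 10 pairs had accessions within 2 of each other, and 5 pairs were off in the same libraries. Such pairs need not be of the same gene, and the 63.5% was for consecutive numbers only. CHAF1B (XM_013093321.1) and DOP1B (XM_013093323.1) were among the 10, off in different libraries. Of the 5 pairs, XM_005023723.1 and XM_005023724.1 had identical values in every library and so are a single measurement. XM_013108285.1 and XM_013108286.1, an example chosen after the values had been seen, were on only in high 1, at 3.22 and 20.6 FPKM, and in high 3, at 5.075 and 22.8 FPKM.

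Marker genes of the cells that an ovary can hold were listed to see what else differed between the libraries, and 0 of their transcripts were members or were called by limma. Matched genes were 6 of 15 for oocyte, 4 of 10 for granulosa, 6 of 10 for stromal, 7 of 12 for leukocyte, 5 of 8 for endothelial, 1 of 6 for smooth muscle and 4 of 12 for housekeeping genes. Summed oocyte markers were 709 to 983 FPKM in high and 421 to 1147 FPKM in low libraries, with the extremes in low 3 and low 1. Stromal markers were 1264 to 1571 FPKM in high and 792 to 1568 FPKM in low libraries, lowest in low 1, and leukocyte markers were 462 to 1612 against 209 to 482 FPKM. Much of the leukocyte sum was JCHAIN, at 1347.5, 388 and 282 FPKM in high 1 to 3 and 95.5, 311 and 289 FPKM in low 1 to 3. The leukocyte extreme of 1612 FPKM in high 1 was thus set mainly by this gene. Granulosa markers were 75.7 to 98.1 against 63.4 to 99.2 FPKM, endothelial markers 144 to 179 against 107 to 151 FPKM, and the smooth muscle gene 1427 to 1794 against 1154 to 2510 FPKM. Housekeeping genes were 5285 to 6105 against 3622 to 5479 FPKM, and none of their 4 transcripts was listed at 0 in any library. No transcript of the other 6 cell type lists was at 0 either, while 2 leukocyte transcripts were off in all 6 libraries. Median log2 differences, high minus low, were 0.09 for oocyte, 0.01 for granulosa, 0.36 for stromal, 0.56 for leukocyte, 0.15 for endothelial, -0.15 for smooth muscle and 0.48 for housekeeping transcripts that were tested. The low 1 ovary, where HOXC12, HOXD12 and GC were highest, had the highest oocyte and the lowest stromal, leukocyte, endothelial and smooth muscle sums. Its oocyte sum was mostly ZP2 and BTG4, at 517 and 355 FPKM. ZP2, BTG4, MOS and ZAR1L were highest in low 1, but GDF9 and TDRD5 in low 2. The part of this makeup in the members' patterns was not tested.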

How the data were processed

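Ovary RNA of high-laying and low-laying ducks was sequenced from 6 stranded libraries of messenger RNA, 3 in each group, per the labels' protocols. Per the submitters' processing notes, Bowtie2 2.0.6 and TopHat2 2.0.9 were used by the authors. The abundance program, the build and the annotation were not given in the sources used here. For each library the authors deposited 1 column of values without naming a unit, read here as FPKM because the values are fractional, never negative and sum to different totals. Depth is unknown, so precision comes from the replicates alone.

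Libraries were numbered by accession order, which pairs no libraries. Members were chosen with an off limit of 0.1 FPKM, a pseudocount of 1 and 200 transcripts kept. All transcripts reaching 1 FPKM in 3 or more libraries were compared on log2(FPKM + 1) with limma-trend (limma 3.58.1, R 4.3.3) and a term for group alone, two-sided, Benjamini-Hochberg adjusted over all 19790 tested, at a threshold of 0.05. Differences on this scale understate the change of low transcripts. Symbols came from the RefSeq gene table of the IASCAAS telomere-to-telomere Pekin duck assembly, in which 4636 of all transcripts matched without version (5 with it); no coordinates were used.

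The rule for named transcripts took members with a symbol, the 5 widest ranges, the 5 smallest p in each direction, those off in exactly 1 laying group, the 3 on each side of the limit and the 3 highest levels. The members, the marker lists (oocyte, granulosa, stromal, leukocyte, endothelial, smooth muscle, housekeeping) and the lists of HOX, liver plasma protein, and catecholamine and adrenal genes were chosen with earlier results of these data known. Alternatives were other off limits, pseudocount, numbers kept, scaling, filters and leaving out each library.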

Additional observations from a re-analysis of the deposited data

How the results depend on the processing

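No paired analysis was possible because the groups share no replicate numbers in the labels. Of the 200 members, 140 were also chosen with an off limit of 0.01 FPKM, 134 with 0.5 FPKM, 190 with a pseudocount of 0.1, 196 with each library scaled by its median, and 156 to 175 with a library left out. The number off in exactly 1 laying group, 1 as reported, was 0 with the limit at 0.01 FPKM, 2 with 0.5 FPKM, 0 with 100 members kept, 3 with 400 kept, and 1 to 12 with a library left out, where a group of 2 libraries is easier to match. Members off in exactly 1 library numbered 131, and 71 and 256 with 100 and 400 kept, with 137 to 147 when a library was left out. Members whose groups do not overlap numbered 26, and 17 and 45 with 100 and 400 kept, and 43 to 54 with a library left out, by the same construction.

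The rule had left out XM_013092159.1, the call of the main limma test, so the 0 members called there followed from the rule. Limma called 0 members under every alternative on all 6 libraries, and 0 or 1 with a library left out. Of all tested transcripts it called 0 of 39755 without the filter and 1 under each other alternative on all 6 libraries. With a library left out it called 0 to 2 of all tested, 2 of 19271 without high 1 and 1 of 19166 without low 1. So few calls in all make the 0 members no result about the members. The single member calls were XM_013097999.1 without high 1 and XM_013108977.1 without low 1. In each case the library left out was the one that stood apart from its group for that transcript. The mean excess of off members per library in low over high, 19, was 17 with the limit at 0.01 FPKM, 5.33 with 0.5 FPKM, 12 with 100 members kept, 25 with 400 kept and 13.8 to 25.5 with a library left out. For all coding transcripts the difference, -281, was -171 with 0.01 FPKM and -338 to -226 with a library left out. For coding transcripts with at least 1 FPKM somewhere the difference, 35.3, was -98.7 with 0.5 FPKM and 17.3 to 41.2 with a library left out. These 3 differences and their alternatives were chosen after seeing the data. The log2 differences of the 10 transcripts with the smallest p kept their sign in 83 of 83 alternatives. In all 10 the groups did not overlap, so another pseudocount or filter, or a library left out, could not turn the sign. The count is thus no support for these differences. Alternatives in which a transcript failed the abundance filter are not among the 83. Depth being unknown, no lower limit of detection can be given for an off value.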
